A study of Homo sapiens with 12 samples.

Results

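The EGR, KLF and IER immediate early genes described here were EGR1, EGR3, KLF4, KLF6, KLF10, IER2, IER3, IER5 and IER5L, 9 of the 18650 coding genes in the files. They were chosen by name, and overlapping intervals of a gene were counted once. RNA made within 1 h of 4-thiouridine (100 µM) was measured by SLAM-seq in 22Rv1, a line from human prostate cancer, edited so that the splicing factor SF3B1 carries C1111S. This substitution was present in every library, and the labels do not say whether the line is 1 clone. The compounds were WX-02-23 (20 µM), WX-02-43 (20 µM) and PladB (10 nM), each given for 3 h before the label, with DMSO (0.1% v/v) as vehicle. Each of these 4 groups had 3 libraries. The labels call WX-02-23 and WX-02-43 stereoprobes, while PladB (pladienolide B) binds and blocks the SF3b complex that holds SF3B1. No label ties replicates to separate cultures, and p-values therefore measure the spread between these libraries, which may be technical. In bulk libraries, fewer cells with a transcript and less of it per cell cannot be told apart.

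Immediate early genes are transcribed within minutes of a growth factor, stress or other stimulus, from factors already in the cell. Serum response factor (SRF), with its ELK and MRTF partners, drives many of them through a promoter element named the CArG box. Their mRNAs are short-lived, so a large part of such an mRNA pool is renewed within a short labelling time. EGR1 and EGR3 are zinc finger transcription factors that bind GC-rich DNA, and the KLF proteins are zinc finger factors that bind GC and CACC boxes. KLF4 is known as a pluripotency factor, KLF6 as a candidate tumour suppressor in prostate, and KLF10 as an early gene of TGF-beta signalling. IER3 acts in survival signalling under stress, IER5 is a target of the heat shock factor HSF1, and IER2 is a nuclear protein induced by serum.

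The promoters of EGR1, IER2 and KLF6 are shown because these 3 genes took a larger part of the newly made RNA after PladB, and those of IER5 and IER5L because this pair shares a motif. Each runs from 250 bases before to 50 after the RefSeq start of the gene, in GRCh38.p14, and capitals mark the CArG box, TGACG (the core of the cAMP response element, CGTCA on the printed strand) and GAANNTTC (a heat shock element unit), both strands searched. The promoters lie at chr5:138465229-138465528 (plus) for EGR1, chr19:13150161-13150460 (plus) for IER2, chr10:3785160-3785459 (minus) for KLF6, chr1:181088450-181088749 (plus) for IER5 and chr9:129178212-129178511 (minus) for IER5L.
EGR1: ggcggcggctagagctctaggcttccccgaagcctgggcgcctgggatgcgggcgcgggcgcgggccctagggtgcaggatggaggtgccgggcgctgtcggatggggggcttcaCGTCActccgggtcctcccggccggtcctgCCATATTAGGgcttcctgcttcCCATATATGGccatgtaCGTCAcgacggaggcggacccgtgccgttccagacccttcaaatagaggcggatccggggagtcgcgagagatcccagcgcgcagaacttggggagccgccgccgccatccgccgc
IER2: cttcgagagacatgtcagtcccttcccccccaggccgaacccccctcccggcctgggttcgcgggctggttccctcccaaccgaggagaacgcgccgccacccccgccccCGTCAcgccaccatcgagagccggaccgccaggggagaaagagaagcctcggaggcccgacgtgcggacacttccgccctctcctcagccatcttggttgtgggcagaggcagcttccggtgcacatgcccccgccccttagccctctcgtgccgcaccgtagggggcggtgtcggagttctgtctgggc
KLF6: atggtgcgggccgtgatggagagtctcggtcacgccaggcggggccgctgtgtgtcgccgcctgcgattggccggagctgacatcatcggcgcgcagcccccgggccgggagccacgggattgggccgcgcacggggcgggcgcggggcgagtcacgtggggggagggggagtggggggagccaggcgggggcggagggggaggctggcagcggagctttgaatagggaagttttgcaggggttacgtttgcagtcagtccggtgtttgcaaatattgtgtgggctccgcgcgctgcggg
IER5: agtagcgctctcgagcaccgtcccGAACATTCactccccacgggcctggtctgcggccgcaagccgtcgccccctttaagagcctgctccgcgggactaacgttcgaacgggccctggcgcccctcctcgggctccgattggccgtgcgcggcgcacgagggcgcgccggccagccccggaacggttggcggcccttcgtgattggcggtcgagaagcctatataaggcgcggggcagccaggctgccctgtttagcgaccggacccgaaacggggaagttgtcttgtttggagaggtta
IER5L: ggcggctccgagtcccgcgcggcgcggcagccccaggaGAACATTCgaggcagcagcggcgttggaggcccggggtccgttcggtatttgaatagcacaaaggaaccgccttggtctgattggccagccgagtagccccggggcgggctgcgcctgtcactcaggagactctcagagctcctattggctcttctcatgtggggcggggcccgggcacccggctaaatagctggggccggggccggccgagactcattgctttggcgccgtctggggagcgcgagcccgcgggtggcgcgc
EGR1 held 2 CArG boxes, whose first bases lie at -105 and -83 from the start, and 2 matches to TGACG. A CArG box was found in 1.29% of 35116 RefSeq promoters of the same length, and TGACG in 24.6%. IER2 held 1 TGACG match, and KLF6 held none of the 3 motifs. KLF4, whose promoter was searched but is not shown, held 2 TGACG matches, at -247 and -210, as many as EGR1. IER5 and IER5L each held GAACATTC, at -226 and -212, a match to GAANNTTC, which was found in 6.77% of promoters. The CCAAT motif, found in 34.6% of promoters, occurred 2 times each in KLF6, IER5 and IER5L and is not in capitals. The motif GCGNGGGCG, found in 9.43% of promoters, occurred 1 time each in EGR1, KLF4 and KLF6 and is not in capitals either. A match describes letters in a window and is not a measured site.

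Reads were counted over intervals at transcript 3′ ends (hg19). The EGR1 interval was chr5:137803771-137805004 on the plus strand, and that of EGR3 was chr8:22545174-22547985 on the minus strand. Among KLF genes, all on the minus strand, the intervals were chr9:110247133-110248031 for KLF4, chr10:3818188-3821744 for KLF6 and chr8:103661005-103662359 for KLF10. IER2 (chr19:13264673-13265722) and IER5 (chr1:181059023-181059979) lay on the plus strand, and IER3 (chr6:30710976-30711712) and IER5L (chr9:131937831-131939116) on the minus strand. By GENCODE release 29, the matched transcripts have 1 exon for IER5 and IER5L, 2 exons for EGR1, EGR3, IER2 and IER3, 4 exons for KLF10 and 5 exons for KLF4. KLF6 has transcripts of 3 and 4 exons. Over the 12 libraries, 65.5% of IER2 reads were multimapping, against at most 2.09% for each of the other genes, so the source of IER2 reads is uncertain, and the files do not give multimapping T>C reads apart.

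Coding genes received 12331501 to 21414162 reads per library, of which 826620 to 2094217 carried a T>C change, the mark left by 4-thiouridine. T>C reads made up 9.64% ± 0.217 of coding reads after WX-02-23, 9.10% ± 0.277 after WX-02-43 and 5.44% ± 0.191 after PladB, against 9.45% ± 0.430 after DMSO (SD, n = 3 each). T>C reads that arise without 4-thiouridine could not be subtracted, for want of an unlabelled library in the set analysed here. The 7 luminal prostate markers reported here, FOXA1, HOXB13, KLK2, KLK3, KRT8, KRT18 and TMPRSS2, were all read in all 12 libraries. Their summed level in all reads was 1277 to 1449 CPM after WX-02-23, 1249.8 to 1291 CPM after WX-02-43 and 1909 to 2013 CPM after PladB, against 1311 to 1448 CPM after DMSO. Of 3 basal markers, TP63 and KRT5 were at 0 in all 12 libraries and KRT14 was read in 1, and immune (PTPRC, CD3E, CD14) and endothelial (PECAM1, CDH5) sums reached at most 0.646 and 0.896 CPM, with CD3E and CDH5 at 0 throughout. Of 3 stromal markers COL1A2 was at 0 throughout, COL1A1 was read in all 12 libraries and DCN in some, and they summed to 6.63 to 10.8 CPM after WX-02-23, 5.44 to 7.39 CPM after WX-02-43 and 7.63 to 11.6 CPM after PladB, against 3.43 to 7.21 CPM after DMSO. The neuroendocrine markers CHGA, SYP and INSM1 summed to 22.6 to 47.4 CPM after WX-02-23, 20.3 to 39.3 CPM after WX-02-43 and 34.6 to 40.7 CPM after PladB, against 23.5 to 32.5 CPM after DMSO, mostly from SYP. The part of any of these marker levels in the results below was not tested.

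In DMSO cells labelled reads were the larger part of the reads for 7 of the 8 genes read in every DMSO library. The labelled share, the percentage of a gene's reads that carry T>C, averaged 79.9% ± 6.32 for EGR1, 79.8% ± 9.31 for KLF10 and 76.5% ± 4.60 for KLF6 (SD, n = 3). It averaged 66.4% ± 1.86 for KLF4, 63.4% ± 18.8 for IER3, 62.5% ± 10.1 for IER5, 59.3% ± 1.29 for IER2 and 49.4% ± 10.6 for IER5L. The median of 11105 genes with at least 20 reads in every DMSO library was 9.29%. Only 21 of those genes had a share above that of EGR1, and 97.2% of them lay below IER5L, the lowest of the 8 genes. Neighbours in this order overlapped between libraries, except that KLF6 lay above KLF4 and IER2 above IER5L in every DMSO library. EGR3 was outside the order, with shares of 60.3% and 81.7% in the DMSO libraries 1 and 3 and no read in library 2. The share also depends on how many T bases a read covers, which differs between genes.

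**Figure D1:**
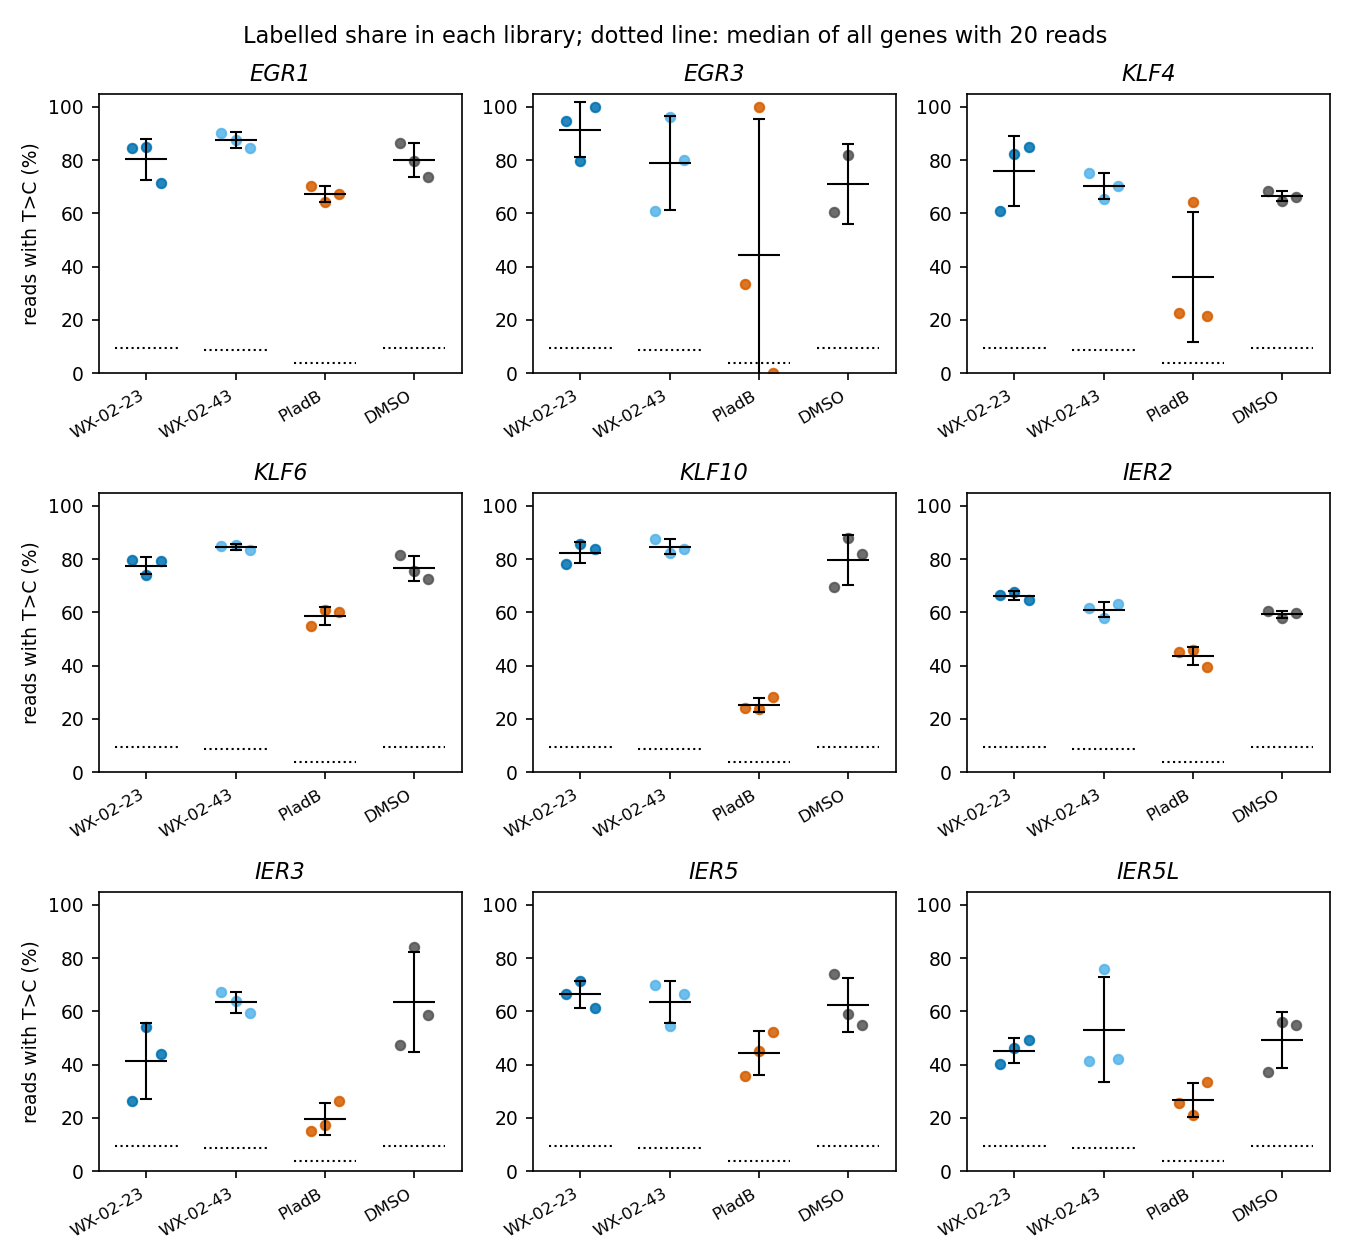
Labelled share (reads with T>C, in percent) of each gene in each library (dots) after WX-02-23, WX-02-43, PladB and DMSO, with mean and SD (bars) and the median of all genes with at least 20 reads per library (dotted). PladB libraries lie below every DMSO library for 8 of 8 genes with a share in all 6 libraries. KLF10 averages 25.3% after PladB and 79.8% after DMSO, and the dotted median is 4.00% after PladB and 9.29% after DMSO.

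After PladB, EGR1, IER2 and KLF6 took a larger part of the newly made RNA and KLF10 a smaller part, in counts per 1000000 T>C reads (CPM, TMM scaled), though KLF6 changed sign when T>C reads were scaled to all reads. EGR1 had 2266, 1990.3 and 2579 CPM of T>C reads after PladB, against 579.7, 431 and 442 CPM after DMSO. Every PladB library exceeded every DMSO library by more than 3-fold, and the edgeR change was 2.23 on the log2 scale (SE 0.17, adjusted p = 1.16e-12). IER2 had 2946, 3036 and 3067 CPM after PladB, against 1375, 1476 and 1320.0 CPM after DMSO. The PladB libraries were again all above, with a log2 change of 1.12 (SE 0.13, edgeR adjusted p = 3.51e-08). KLF6 had 1108, 1045 and 1033 CPM after PladB and 748, 674.5 and 630.1 CPM after DMSO, without overlap. Its log2 change was 0.63 (SE 0.17, edgeR adjusted p = 0.0104). KLF10 went the other way, with 138, 115 and 201 CPM after PladB, against 363, 621 and 357 CPM after DMSO. All its PladB libraries lay below the DMSO ones, and it fell by 1.56 on the log2 scale (SE 0.29, edgeR adjusted p = 0.000198).

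Thus 3 of 9 genes were called higher (4.72% of 10722 coding genes tested) and 1 lower (5.91% of them) in T>C reads after PladB. The median over the 9 genes was -0.16 and that over all genes tested was -0.36. The other 5 genes were not called. KLF4 had 57.5, 90.9 and 91.3 CPM of T>C reads after PladB and 147, 127 and 120.3 CPM after DMSO, groups that do not overlap, with a log2 change of -0.72 (SE 0.39, edgeR adjusted p = 0.258). EGR3 had 11, 3 and 0 T>C reads in the PladB libraries and 70, 0 and 103 in the DMSO libraries. Its DMSO libraries spanned the PladB ones, and the 95% interval of its log2 change ran from -5.55 to 0.02. IER5 had 259.7, 417 and 642 CPM after PladB and 286, 389 and 201 CPM after DMSO, which overlap (0.59, SE 0.28, edgeR adjusted p = 0.188). Without PladB library 1 the IER5 change was 0.86 (edgeR adjusted p = 0.0432), while over all alternatives it ran from -0.22 to 0.86 (adjusted p 0.0432 to 0.733). IER3 had 26.8, 77.5 and 87.2 CPM after PladB and 58.2, 85.4 and 75.4 CPM after DMSO (-0.20, SE 0.63). IER5L had 111, 110.9 and 129 CPM after PladB and 85.3, 211 and 97.2 CPM after DMSO (-0.16, SE 0.44). Both genes overlapped between the groups. Over the 9 genes, 3 lay higher and 2 lower without overlap in T>C reads, beside 10.4% and 17.4% of 10722 genes.

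The scaling sets where 0 lies in this comparison, because PladB libraries held fewer T>C reads. With T>C reads scaled to all reads, the median over all genes was -1.15, in place of -0.36. EGR1 was still called higher (1.43, edgeR adjusted p = 2.49e-07) and KLF10 lower (-2.36, edgeR adjusted p = 1.85e-07). The IER2 change was 0.32 (edgeR adjusted p = 0.0826), and that of KLF6 turned to -0.16 (edgeR adjusted p = 0.530). KLF4 was called lower on that scale, at -1.52 (edgeR adjusted p = 0.00480). In the other alternatives its change ran up to -0.53, with edgeR adjusted p up to 0.468.

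**Figure D2:**
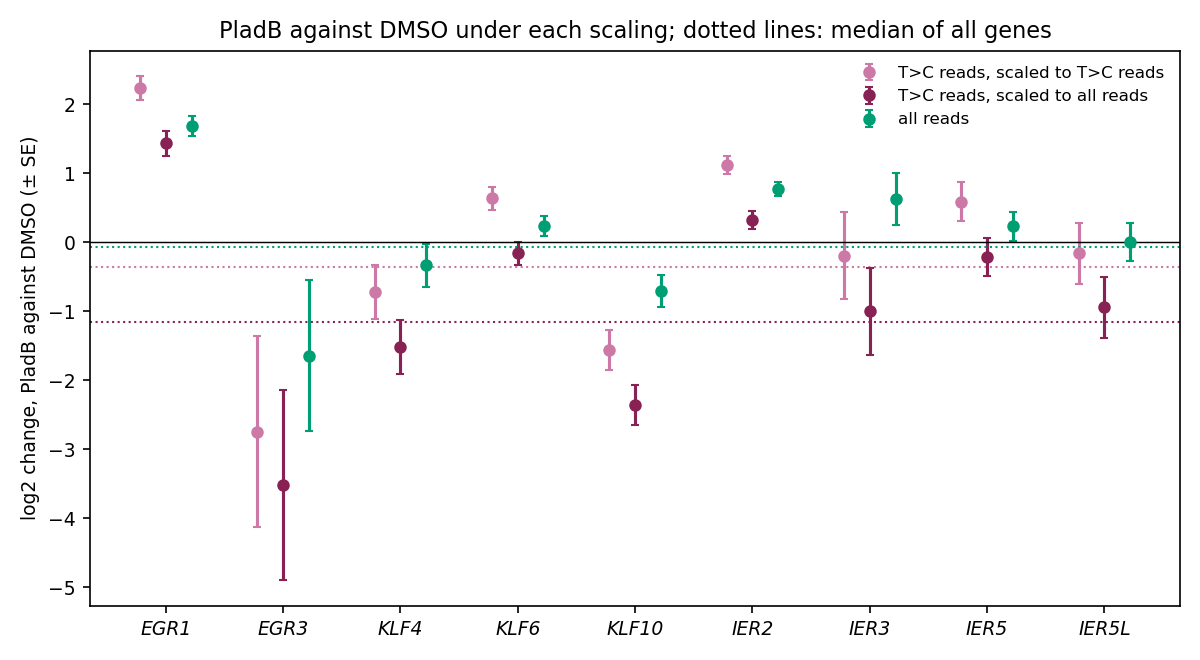
Log2 change (± SE) of each gene, PladB against DMSO, for T>C reads scaled to T>C reads, T>C reads scaled to all reads and all reads, with the median of all genes for each (dotted). EGR1 lies above and KLF10 below 0 on all 3 scales, while KLF6 is at 0.63 and -0.16 on the first 2 scales.

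In all reads, which mix old and new RNA, 2 of 9 genes were called higher after PladB (13.9% of 13178 genes tested) and 1 lower (16.3%). EGR1 had 181, 171 and 202 CPM after PladB and 65.5, 49.6 and 57.3 CPM after DMSO, a 3.21-fold difference (log2 1.68, SE 0.15, edgeR adjusted p = 1.53e-11). IER2 had 367, 364 and 407 CPM after PladB and 222, 233 and 212 CPM after DMSO (log2 0.77, SE 0.11, edgeR adjusted p = 2.75e-07). Neither gene overlapped between the groups. KLF10 had 32.2, 26.9 and 37.3 CPM after PladB and 50.9, 64.6 and 41.8 CPM after DMSO, and fell by 0.71 on the log2 scale (SE 0.23, edgeR adjusted p = 0.0148). That call was lost without DMSO library 2 (edgeR adjusted p = 0.104) or PladB library 2 (0.0621). KLF6, called in T>C reads scaled to T>C reads, had a log2 change of 0.23 in all reads (SE 0.15, edgeR adjusted p = 0.262). Its PladB libraries lay above the DMSO ones without overlap. Over the 9 genes, 3 lay higher and 1 lower without overlap in all reads, beside 19.1% and 21.7% of 13178 genes.

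The labelled share was lower after PladB in every library than in every DMSO library for 8 of 8 genes with a share in all 6 libraries. The same held for 32.0% of 10936 genes. These 8 genes had mean shares of 49.4% to 79.9% after DMSO, where the median gene had 9.29%. The part of that difference in this count was not tested. EGR1 shares were 70.2%, 64.2% and 67.2% after PladB, against 86.4%, 79.6% and 73.8% after DMSO. KLF10 shares were 24.05%, 23.6% and 28.3% after PladB, against 69.6%, 87.9% and 81.7% after DMSO. KLF10 thus stood far below its DMSO range, with 139, 86 and 145 labelled of 578, 365 and 512 reads after PladB. In a fit of labelled against unlabelled reads, its log2 odds fell by 3.64 (SE 0.73, edgeR adjusted p = 0.00523). IER2 shares were 45.1%, 46.0% and 39.6% after PladB and 60.5%, 57.9% and 59.6% after DMSO, a change of -0.92 in log2 odds (SE 0.28, edgeR adjusted p = 0.0489). These 2 of 9 were called lower, beside 9.46% of 12320 genes. The median change in log2 odds was -1.44 over the 9 genes and -1.27 over all genes. The IER2 call was lost in all 10 alternatives run (edgeR adjusted p 0.0556 to 1.0), among them each of the 6 libraries left out, and relative to the typical gene its share changed by -0.03.

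Shares of the other genes did not pass the test after PladB. Relative to the typical gene, EGR1, IER5 and KLF6 changed by -0.11, -0.20 and -0.32 in log2 odds. On that scale IER5L, KLF4, IER3 and KLF10 changed by -0.55, -1.10, -2.05 and -2.74, and the median over all genes was -0.48. KLF6 shares were 54.9%, 60.8% and 60.2% after PladB and 81.5%, 75.5% and 72.4% after DMSO (log2 odds -1.21, edgeR adjusted p = 0.0825; 0.0303 with plain sums over intervals). KLF4 shares were 22.7%, 64.2% and 21.4% after PladB and 68.4%, 64.6% and 66.3% after DMSO, so PladB library 2 nearly reached the DMSO range. IER3 averaged 19.6% ± 5.97 after PladB and 63.4% ± 18.8 after DMSO (SD, n = 3 each; edgeR adjusted p = 0.159). IER5 averaged 44.3% ± 8.33 after PladB and 62.5% ± 10.1 after DMSO, and IER5L averaged 26.7% ± 6.28 after PladB and 49.4% ± 10.6 after DMSO. EGR3 had 33, 3 and 33 reads in the PladB libraries, too few for a comparison of shares. Among genes with at least 20 reads in every PladB library, 15 had a share above EGR1 after PladB and 449 above KLF10, whereas 23 lay above KLF10 after DMSO.

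The percentage of covered T positions read as C was lowest after PladB as well. It was 4.86% ± 0.192 for EGR1 after PladB, against 7.40% ± 0.0841 after DMSO, and 1.27% ± 0.476 for KLF10 after PladB, against 6.15% ± 1.18 after DMSO (SD, n = 3 each). PladB libraries lay below every DMSO library for 8 of 8 genes with values in all 6 libraries, and for 36.2% of 10928 genes. After WX-02-23 it lay above every DMSO library for 4 of 8 genes (7.36% of 11322 genes), and after WX-02-43 for 7 of 8 (12.5% of 11399 genes). It was lower after WX-02-23 than after WX-02-43 in every library for 6 of 9 genes (8.58% of 11408 genes). Over all coding reads it was 0.811% ± 0.0156 after WX-02-23, 0.913% ± 0.0364 after WX-02-43 and 0.318% ± 0.00900 after PladB, against 0.706% ± 0.0244 after DMSO. The part of that library-wide difference in the values of the 9 genes was not tested.

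**Figure D3:**
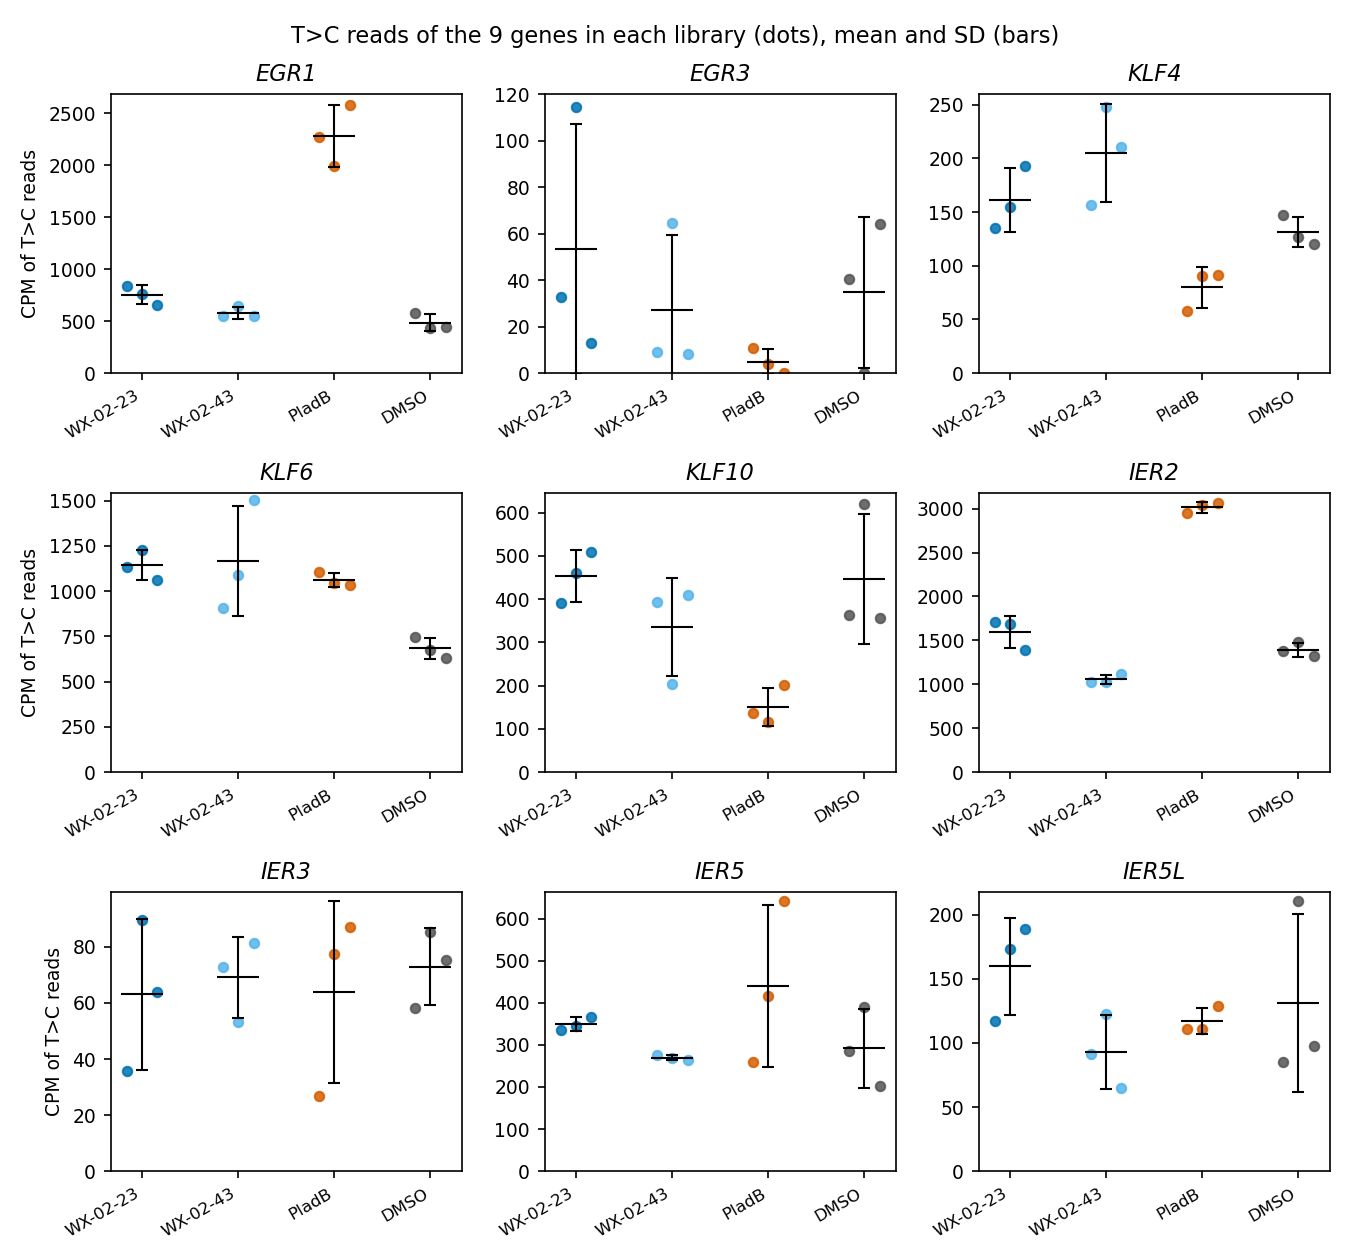
T>C reads (CPM) of each gene in each library (dots) after WX-02-23, WX-02-43, PladB and DMSO, with mean and SD (bars). EGR1 and IER2 stand apart after PladB, at 1990.3 to 2579 and 2946 to 3067 CPM, and KLF6 lies above DMSO after each of the 3 compounds (after PladB, not when T>C reads are scaled to all reads).

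Other immediate early genes were set beside the 9 through a list of 48 genes, of which 44 were tested in T>C reads. After PladB, 10 rose and 5 fell, beside 4.72% and 5.91% of the 10722 genes tested. The median log2 change was 0.05 beside -0.36 for all genes. Setting genes with no T>C read after PladB to their bound against a floor of 3 counts left the medians of all 3 lists used here as they were. JUN, a subunit of the AP-1 factor, had 3796 ± 611 CPM after PladB and 1084 ± 103 CPM after DMSO (log2 1.81, edgeR adjusted p = 1.36e-13). CCNL1 (1.72), a cyclin linked to splicing, TRIB1 (1.34), a pseudokinase, ZFP36 (1.16), which promotes mRNA decay, RHOB (1.10), a small GTPase, and MYC (1.08) were called higher. JUND (1.06), DUSP6 (0.76), an ERK phosphatase, MCL1 (0.73), an apoptosis inhibitor, and BTG1 (0.53) were called higher too. With T>C reads scaled to all reads, only JUN (1.01) and TRIB1 (0.55) of these 10 were called, and MCL1, DUSP6 and BTG1 turned negative. On that scale 12 of 44 list genes were called lower, beside 1749 of all 10722 genes. SIK1 (-2.75), a kinase, SRF (-1.54), ERRFI1 (-1.52), a feedback inhibitor of EGFR, HES1 (-1.44), a Notch target, and ATF3 (-0.85) were called lower. All 5 kept a negative sign in the 12 alternatives run. ZFP36 lost its call in 10 of the 12 alternatives, ATF3 in 5, DUSP6 in 4, SRF in 3 and ERRFI1 in 1.

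In all reads 14 of 45 genes of that list rose and 3 fell after PladB, beside 13.9% and 16.3% of the 13178 genes tested. The median was 0.38 beside -0.07 for all genes tested. FOS, the partner of JUN in AP-1, was called higher (1.54, edgeR adjusted p = 0.0169), a call lost without DMSO library 1 or PladB library 2. GADD45B (1.37), MAFF (1.01), CSRNP1 (0.99), DUSP4 (0.80) and NFKBIA (0.74) were also called higher without a call in T>C reads. SRF (-1.58), the antiproliferative gene BTG2 (-0.90) and the polo-like kinase gene PLK3 (-1.68) were called lower. The BTG2 call was lost without DMSO library 1 or DMSO library 3.

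The KLF family beyond KLF4, KLF6 and KLF10 had 14 genes listed and 9 tested in T>C reads. None rose and 2 fell after PladB, beside 4.72% and 5.91% of the 10722 genes tested, with a median of -0.43. KLF15 had 6.46 ± 11.2 CPM after PladB and 76.2 ± 28.6 CPM after DMSO (SD, n = 3 each; log2 -3.61, edgeR adjusted p = 0.00683). KLF13 had no T>C read in any PladB library and 42.9 ± 10.4 CPM after DMSO (edgeR adjusted p = 0.00633). Its DMSO mean was 11.6-fold above a floor of 3 counts per library, a ratio that leaves out the DMSO spread. In all reads KLF7 rose (1.30, edgeR adjusted p = 2.39e-07) and KLF15 fell (-2.41, edgeR adjusted p = 1.90e-07). Thus 1 of 11 tested rose and 1 fell, near the 13.9% and 16.3% of all 13178 genes tested.

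Among 15 regulators and partners of the 9 genes, all tested, none rose and 2 fell in T>C reads after PladB, with a median of -1.02. Over all 10722 genes tested, 4.72% rose and 5.91% fell. SRF, which stands in the first list as well, had 63.2 ± 39.2 CPM after PladB and 186 ± 100.4 CPM after DMSO (SD, n = 3 each; edgeR adjusted p = 0.0277). MKL2, an SRF coactivator of the MRTF family, had no T>C read after PladB and 65.9 ± 52.5 CPM after DMSO (edgeR adjusted p = 0.000240). Its DMSO mean was 17.7-fold above a floor of 3 counts per library, a ratio that leaves out the wide DMSO spread. In all reads SRF (-1.58), MKL1 (-2.81), MKL2 (-2.65), the ternary complex factor ELK4 (-0.53) and the EGR1 corepressor NAB2 (-0.94) were called lower. These were 5 of 15, beside 16.3% of 13178 genes tested. The ERK kinase MAPK3 (0.79) and the transcription factor SP1 (0.61) were called higher, 2 of 15, which is near the 13.9% of all genes tested. The calls of MKL1, ELK4, NAB2 and SP1 were lost without at least 1 library, DMSO library 1 among them.

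WX-02-23 was followed by more newly made KLF6 RNA. KLF6 had 1134, 1228 and 1064 CPM of T>C reads after WX-02-23, against 748, 674.5 and 630.1 CPM after DMSO. The groups did not overlap, and the log2 change was 0.74 (SE 0.17, edgeR adjusted p = 0.0436). The call was lost with any 1 of the 6 libraries left out (edgeR adjusted p 0.0586 to 0.294), with the log2 change between 0.68 and 0.81. EGR1 had 840.3, 766 and 659 CPM after WX-02-23 and 579.7, 431 and 442 CPM after DMSO, also without overlap (0.64, SE 0.17, edgeR adjusted p = 0.148). DESeq2 called EGR1 as well (0.64, adjusted p = 0.00580), and over all alternatives its adjusted p ran up to 0.763. By edgeR, KLF6 was thus the 1 of 9 genes called in T>C reads, where 0.224% of 10722 genes were called. KLF6 and EGR1 were the 2 of 9 that lay higher without overlap, beside 6.23% of 10722 genes.

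WX-02-23 was followed by 2 calls among the 9 in all reads, both higher, beside 0.698% of all 13178 genes tested. KLF6 had 136, 154 and 129 CPM after WX-02-23 and 89.6, 81.8 and 83.2 CPM after DMSO (log2 0.72, SE 0.15, edgeR adjusted p = 0.00711). EGR1 had 95.2, 83.5 and 88.9 CPM after WX-02-23 and 65.5, 49.6 and 57.3 CPM after DMSO (log2 0.63, SE 0.14, edgeR adjusted p = 0.0185). Neither overlapped between the groups. IER3 did not overlap either, with 13.0 to 15.3 CPM after WX-02-23 and 9.29 to 12.3 CPM after DMSO, and was not called (0.33, edgeR adjusted p = 0.904). In all reads 3 of 9 genes thus lay higher without overlap, beside 6.89% of 13178 genes. The KLF6 call was lost without WX-02-23 library 2 (edgeR adjusted p = 0.0779), and the EGR1 call without DMSO library 2 (0.110) or 3 (0.0533) or WX-02-23 library 1 (0.104) or 3 (0.0616).

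The other 7 genes were not called after WX-02-23. IER2 had 1713, 1688 and 1385 CPM of T>C reads after WX-02-23, which overlaps its DMSO range, and a log2 change of 0.20 (95% interval -0.06 to 0.46). KLF10 had 391 to 509 CPM after WX-02-23 and 357 to 621 CPM after DMSO (log2 change 0.02), and KLF4 135 to 193 CPM after WX-02-23 and 120.3 to 147 CPM after DMSO (0.30). IER5 had 335 to 367 CPM after WX-02-23 and 201 to 389 CPM after DMSO (0.25). The T>C values of these genes overlapped between the groups. So did those of IER5L (0.29), IER3 (-0.21) and EGR3 (0.61), at 117 to 189, 35.6 to 89.5 and 12.8 to 114 CPM after WX-02-23. Labelled shares overlapped between the groups for 8 of 9 genes. IER2 lay higher without overlap, as did 5.53% of 11329 genes, and 1 of 9 is near that background. Its shares were 66.7%, 67.8% and 64.5% after WX-02-23 and 60.5%, 57.9% and 59.6% after DMSO. No share was called among the 9 by edgeR (0.00812% of 12320 genes called, 388 with an unadjusted p under 0.05, none of them among the 9). Of the other immediate early genes, none of 44 was called in T>C reads. The change of ERRFI1, a feedback inhibitor of EGFR, was 1.53 (edgeR adjusted p = 0.0725), that of FOSL2 1.07 and that of NR4A1 -0.99. These were the 3 largest changes among list genes with a mean of at least 20 T>C reads. In all reads ERRFI1 (1.22), ATF3 (0.88) and JUN (0.48) rose and the NF-kappaB inhibitor NFKBIA fell (-0.45). These were 3 higher and 1 lower of 45 tested, beside 0.425% and 0.273% of 13178 genes.

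After WX-02-43 no gene of the 9 was called in T>C reads by edgeR (0.0933% of 10722 genes called, 409 with an unadjusted p under 0.05, KLF6 and IER2 among them). DESeq2 called both (adjusted p = 0.000452 for KLF6 and 0.0392 for IER2), and over all alternatives the adjusted p of IER2 ran up to 1.0. KLF6 had 908, 1089 and 1501 CPM of T>C reads after WX-02-43, above the 748, 674.5 and 630.1 CPM after DMSO in every library, with a log2 change of 0.77 (SE 0.17, edgeR adjusted p = 0.0518). Without WX-02-43 library 1 its change was 0.92 (edgeR adjusted p = 0.0114), and over all alternatives it ran from 0.54 to 0.92 (adjusted p 0.000452 to 0.923). IER2 had 1031, 1025 and 1116 CPM after WX-02-43, below the 1375, 1476 and 1320.0 CPM after DMSO in every library (-0.40, SE 0.13, edgeR adjusted p = 0.662). EGR1 had 547, 648 and 552 CPM after WX-02-43 and overlapped DMSO (0.26, 95% interval -0.07 to 0.60).

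In all reads IER2 was the 1 of 9 called by edgeR after WX-02-43, where 0.167% of 13178 genes were called. It had 157, 156 and 156 CPM after WX-02-43 and 222, 233 and 212 CPM after DMSO, and fell by 0.51 on the log2 scale (SE 0.11, edgeR adjusted p = 0.0176). With multimapping reads subtracted the change was -0.55 and no longer called (edgeR adjusted p = 0.208). Leaving out DMSO library 2 or any 1 WX-02-43 library also ended it (edgeR adjusted p up to 0.117). KLF6 had 101, 112 and 159.7 CPM after WX-02-43 and 89.6, 81.8 and 83.2 CPM after DMSO, without overlap (0.55, SE 0.15, edgeR adjusted p = 0.204; 0.0449 with no filter). KLF4 (157, 248 and 210.4 CPM of T>C reads after WX-02-43, 147, 127 and 120.3 CPM after DMSO) did not overlap in T>C reads and was not called (0.64, SE 0.38). In T>C reads 2 of 9 genes thus lay higher and 1 lower without overlap, beside 6.57% and 5.36% of 10722 genes. In all reads 1 lay higher and 1 lower, beside 6.25% and 5.68% of 13178 genes. KLF10 had 204 to 409 CPM of T>C reads after WX-02-43 and 357 to 621 CPM after DMSO (log2 change -0.41), and IER5 had 265 to 275 CPM after WX-02-43 and 201 to 389 CPM after DMSO (-0.12). IER5L (65.1 to 123 CPM after WX-02-43, change -0.49), IER3 (53.1 to 81.4 CPM, change -0.08) and EGR3 (8.14 to 64.5 CPM, change -0.35) overlapped DMSO as well. KLF6 shares were 84.8%, 85.4% and 83.3% after WX-02-43 and 81.5%, 75.5% and 72.4% after DMSO. They did not overlap, as held for 4.75% of 11404 genes that lay higher, and 1 of 9 is near that background. No share was called by edgeR (0.00% of 12320 genes called, 355 with an unadjusted p under 0.05, none of them among the 9). Of the other immediate early genes, 1 of 44 was called in T>C reads, beside 0.0933% of 10722 genes. It was JUN, with 2046 ± 120 CPM after WX-02-43 and 1084 ± 103 CPM after DMSO (SD, n = 3 each, log2 0.92, edgeR adjusted p = 4.38e-05). In all reads JUN was the 1 of 45 called (log2 0.72, edgeR adjusted p = 0.000148).

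The comparisons with DMSO share the same DMSO libraries, so WX-02-23 and WX-02-43, given at the same dose and time, were also compared with each other. This was the 1 pair of compounds compared, with p-values adjusted over all genes. No gene of the 9 was called in T>C reads by edgeR (0.0466% of 10722 genes called, 306 with an unadjusted p under 0.05, IER2 and EGR1 among them). DESeq2 called IER2 (adjusted p = 3.89e-05), as did edgeR with no filter or scaled to all reads, and over all alternatives its adjusted p ran up to 0.707. IER2 was 0.59 higher after WX-02-23 than after WX-02-43 on the log2 scale, in every library (95% interval 0.33 to 0.85, edgeR adjusted p = 0.0687). EGR1 was 0.38 higher after WX-02-23 (95% interval 0.04 to 0.71), and its libraries, 840.3, 766 and 659 CPM after WX-02-23 and 547, 648 and 552 CPM after WX-02-43, did not overlap. Libraries of IER5, with 335 to 367 CPM after WX-02-23 and 265 to 275 CPM after WX-02-43, did not overlap either, so that 3 of 9 genes lay higher without overlap, beside 5.33% of 10722 genes. The KLF6 difference was -0.03 (95% interval -0.37 to 0.31). For KLF10 the interval ran from -0.13 to 1.00, for KLF4 from -1.12 to 0.43 and for EGR3 from -1.57 to 3.50. For IER3 it ran from -1.40 to 1.13, for IER5 from -0.19 to 0.93 and for IER5L from -0.11 to 1.66.

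In all reads IER2 was the 1 of 9 called by edgeR between the stereoprobes (0.152% of 13178 genes called), with 246, 231 and 207 CPM after WX-02-23 and 157, 156 and 156 CPM after WX-02-43. The log2 difference was 0.54 (SE 0.11, edgeR adjusted p = 0.0111), and with multimapping reads subtracted it was 0.46 (edgeR adjusted p = 0.485). Leaving out 1 library ended the call for 5 of the 6 libraries (edgeR adjusted p 0.0642 to 0.129). IER5L had 28.0, 34.6 and 36.9 CPM after WX-02-23 and 20.8, 14.2 and 13.6 CPM after WX-02-43, without overlap (1.03, 95% interval 0.47 to 1.59, edgeR adjusted p = 0.231). EGR1 did not overlap either (0.57, 95% interval 0.28 to 0.86, edgeR adjusted p = 0.133). It was called by DESeq2 (0.58, adjusted p = 0.00693) and by edgeR with no filter (adjusted p = 0.0491), and over all alternatives its adjusted p ran up to 0.479. KLF10 (47.8 to 58.7 CPM after WX-02-23, 21.8 to 43.2 CPM after WX-02-43), IER3 (13.0 to 15.3 CPM after WX-02-23, 7.33 to 12.1 CPM after WX-02-43) and IER5 (44.6 to 57.7 CPM after WX-02-23, 35.2 to 43.4 CPM after WX-02-43) did not overlap and were not called. In all, 6 of 9 genes lay higher after WX-02-23 without overlap, beside 6.18% of 13178 genes. No labelled share of the 9 was called by edgeR (0.00% of 12320 genes called, 329 with an unadjusted p under 0.05, none of them among the 9).

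**Figure D4:**
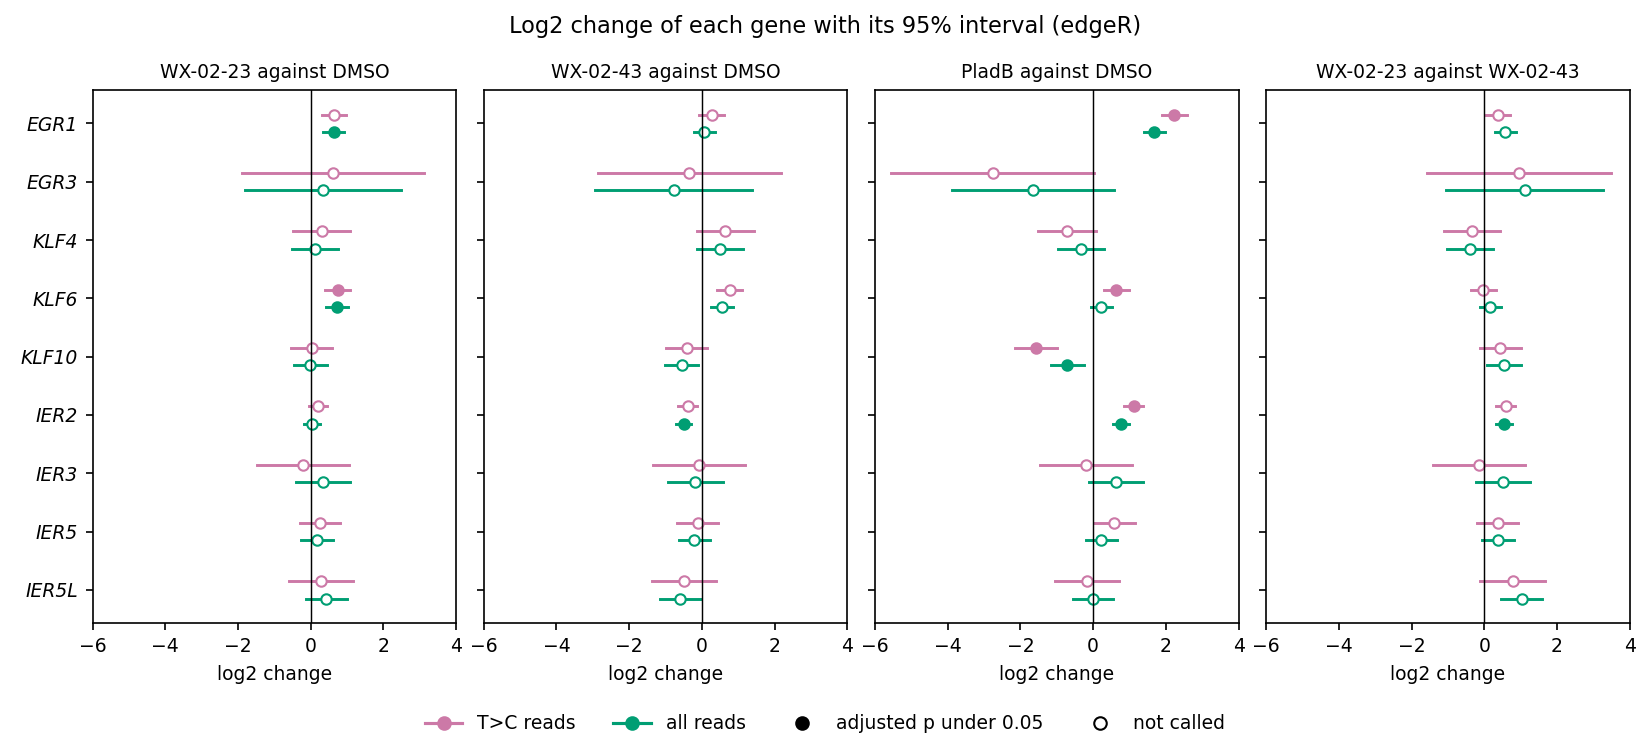
Log2 change with its 95% interval for each gene in each comparison, in T>C reads and in all reads, with filled points for edgeR adjusted p under 0.05. After PladB, EGR1 is at 2.23 and KLF10 at -1.56 in T>C reads, while KLF6 sits at 0.74, 0.77 and 0.63 after WX-02-23, WX-02-43 and PladB (at -0.16 after PladB with T>C reads scaled to all reads).

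Genes whose T>C reads followed those of the 9 over the 12 libraries were ranked by Pearson r of log2(CPM + 1), as a description, since the points share 4 groups and library depth. EGR1 was followed closest by PEBP1 and RNASEK (r 0.97 each), and IER2 by FAU (0.98) and RGS2 (0.97). KLF10 lay closest to PHYHIPL (0.96) and BMF (0.93), and KLF6 to S100A6 (0.89) and KISS1R (0.83). For KLF4 these were TRIM56 (0.93) and ZNF347 (0.91), and for EGR3 PSME3 (0.89) and TRAF3IP2 (0.87). The closest genes for IER5 were RBM7 (0.92) and PPP1R37 (0.90), for IER3 RAD54B (0.89) and RRAS2 (0.87), and for IER5L PLEKHN1 (0.88) and PPP3CA (0.85).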

How the data were processed

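Per the labels' protocols, labelled RNA was alkylated with iodoacetamide and made into QuantSeq 3′ libraries. Per the file headers, the authors mapped, filtered and counted reads with slamdunk 0.4.3, and the deposited files give read counts, T>C read counts, multimapping counts, CPM and the fraction of covered T positions converted. Per the submitters' processing notes, coordinates follow hg19. Other settings are not given in the sources used here. The deposited CPM gave the library totals, 24670716 to 42190854 reads, and only counts were tested.

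Of overlapping coding intervals of a gene, the one with most reads was kept. Counts were tested with edgeR 4.0.16 (R 4.3.3, limma 3.58.1): a quasi-likelihood fit over all 12 libraries and all genes passing filterByExpr, with group as the only term, TMM scaling, Benjamini-Hochberg adjustment over all genes and calls at adjusted p under 0.05. All 9 genes passed the filter. The labelled share was tested by fitting labelled and unlabelled reads of each library together. Fits were tested on simulated data. DESeq2 1.42.0, RLE scaling, T>C reads scaled to all reads, no filter, plain sums over intervals, multimapping reads subtracted, a replicate block and leaving out each library were alternatives. Group values are mean ± SD over 3 libraries. Reads carry no molecular identifiers, so floors of 3 counts cover counting error only. The genes and lists were chosen with earlier results of these data known. The text names all 9 genes, the list genes called after PladB, and the 2 genes most like each of the 9 over the 12 libraries. For the stereoprobes it names only some list genes, from those called or of largest change with a mean of at least 20 T>C reads. Promoters came from RefSeq (GRCh38.p14), with 6 of 9 genes shown or searched, and exon numbers from GENCODE release 29. Some luminal markers are not reported here.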

Additional observations from a re-analysis of the deposited data

Results flagged for a closer look

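KLF6 also had reads in a long noncoding interval that spans the gene, outside its coding interval and outside the comparisons above. These reads averaged 4.69 ± 1.38 CPM after WX-02-43 and 4.67 ± 2.08 CPM after PladB, against 0.756 ± 0.769 CPM after DMSO (SD, n = 3 each), and stood out because every library of both compounds exceeded every DMSO library. The WX-02-23 libraries had 0.627, 4.60 and 1.12 CPM, from 14, 60 and 19 reads, and overlapped DMSO. There were 93, 88 and 52 such reads after WX-02-43 and 101, 31 and 84 after PladB, against 13, 24 and 0 after DMSO. Of the PladB reads 0, 0 and 11 carried T>C, of the WX-02-43 reads 25, 67 and 51, and of the WX-02-23 reads 0, 60 and 0. Of the DMSO reads 13, 0 and 0 carried T>C. Reads carry no molecular identifiers, so counts this low may repeat fewer molecules. In all reads of coding genes, 6.25% of 13178 genes lay higher without overlap after WX-02-43 and 19.1% after PladB. KLF10 also had a noncoding interval, and its reads outside the coding interval overlapped DMSO (2.53 to 3.97 CPM). They were at 3.13 to 6.08 CPM after WX-02-43 and 0.111 to 5.75 CPM after PladB.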

How the results depend on the processing

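Of the 14 calls among the 9 genes, 5 held in every alternative run, and 1 of the others changed sign: KLF6 in T>C reads after PladB, at -0.16 with T>C reads scaled to all reads. In T>C reads, the 1 gene called after WX-02-23 became 2 with DESeq2 and 0 with plain sums, and 0 to 0 without 1 library. The 0 called after WX-02-43 became 2 with DESeq2 and 1 with RLE scaling, no filter, plain sums or the replicate block, and 0 to 1 without 1 library. The 4 called after PladB became 3 with T>C reads scaled to all reads and 4 to 5 without 1 library. The 0 called between the stereoprobes became 1 with DESeq2, no filter or scaling to all reads. In all reads, the calls after WX-02-23 were 1 to 2 without 1 library. The 1 call after WX-02-43 became 0 with multimapping reads subtracted, 2 with no filter and 0 to 1 without 1 library, and the 1 between the stereoprobes became 2 with DESeq2 or no filter, 0 with multimapping reads subtracted and 0 to 1 without 1 library. After PladB, the 3 calls in all reads were 2 to 3 without 1 library, and the 2 in the labelled share became 1 with no filter, with scaling to the typical gene or with the replicate block, and 1 to 1 without 1 library. The cause of these moves was not tested.

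Correlations of deviations between libraries of the same replicate number ran from -0.0238 to 0.0275 in T>C reads, with 0 of 18 pairs over 0.1. They show no shared deviation over genes, but cannot tell whether such libraries shared a day or culture. Over all genes, DESeq2 called 66 genes in T>C reads after WX-02-23 (24 by edgeR), 46 after WX-02-43 (10), 1939 after PladB (1140) and 23 between the stereoprobes (5). Scaling to all reads called 1834 genes after PladB, of which 4.63% were higher, against 44.4% of those scaled to T>C reads. The labelled share after PladB was called for 418 genes relative to the typical gene, against 1167. A planned exact permutation test of the labelled share cannot go below p = 0.1 with 3 libraries against 3, so it could give no call. EGR3, with 0 to 173 reads per library, is limited by depth.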
